A study of Homo sapiens with 12 samples.

Results

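The cytosolic sensors of double-stranded RNA are described here in U937, a human myelomonocytic leukemia cell line, across 12 RNA-seq libraries. The 7 genes were taken by gene symbol: DDX58 (RIG-I), IFIH1 (MDA5), DHX58 (LGP2), MAVS, EIF2AK2 (PKR), ADAR (ADAR1) and ZBP1. They account for 41 of the 197782 transcripts and for 7 of the 44786 symbols in the table. Of these 41 transcripts, 20 had at least 1 read, and 13 had at least 10 normalized reads in at least 3 libraries. Of the 13, 8 are protein-coding and belong to 5 genes, and the other 5 are retained-intron transcripts of ADAR and DHX58. ZBP1 had no transcript above this level.

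There were 3 libraries per group. Cells were untreated, received DAC (decitabine, a cytosine analogue that depletes DNA methyltransferases) at 200 nM, ATRA (all-trans retinoic acid, a ligand of the retinoic acid receptors) at 1 µM, or received both. The labels give 20% FCS and 5 ng/ml GM-CSF for the cultures of all groups, 3 days of treatment with the drugs, 72 h for the treated cells and 96 h for the untreated ones. The study's methods give ATRA from 48 h, harvest of all cells at 72 h and 10% FCS, so that the length of ATRA exposure and of untreated culture differs between the sources. U937 is a single line, and the series calls the triplicates technical, so that p-values measure the spread between these libraries. In bulk RNA, a change in the share of cells that express a gene and a change in RNA per cell cannot be told apart.

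Long or base-paired RNA in the cytosol, from a virus or from transcribed repeats, is recognized by helicases of the RIG-I-like receptor family. RIG-I binds short RNA with a triphosphate end, MDA5 assembles along long duplexes, and LGP2 lacks the signaling domains and modulates both. RIG-I and MDA5 engage MAVS on the outer mitochondrial membrane, from which the kinases TBK1 and IKBKE lead to interferon transcription. PKR is a kinase that halts translation through eIF2α when it binds such duplexes. ADAR1 converts adenosine to inosine in duplexes and keeps the cell's own RNA from being sensed, and ZBP1 binds Z-form nucleic acid and can engage RIPK3. Most of the 7 genes are also induced by interferon.

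Between 8042435 and 10683593 reads were counted per library, and 36.3 to 42.5% of them were mitochondrial. Values are normalized reads, that is, reads per transcript divided by 1 size factor for each library. Libraries are listed in the order of their column numbers. Reads that fall on bases shared by several transcripts were mostly left uncounted, so a value mostly reflects the stretch that no other transcript placed in GENCODE 44 shares. This stretch covered 135 bases of DDX58, 175 of MAVS, 5933 of EIF2AK2 and 26 of ADAR, and values are therefore compared between groups and not between genes. Of the 21 sensor transcripts without a read, 12 had no such base.

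**Figure D1:**
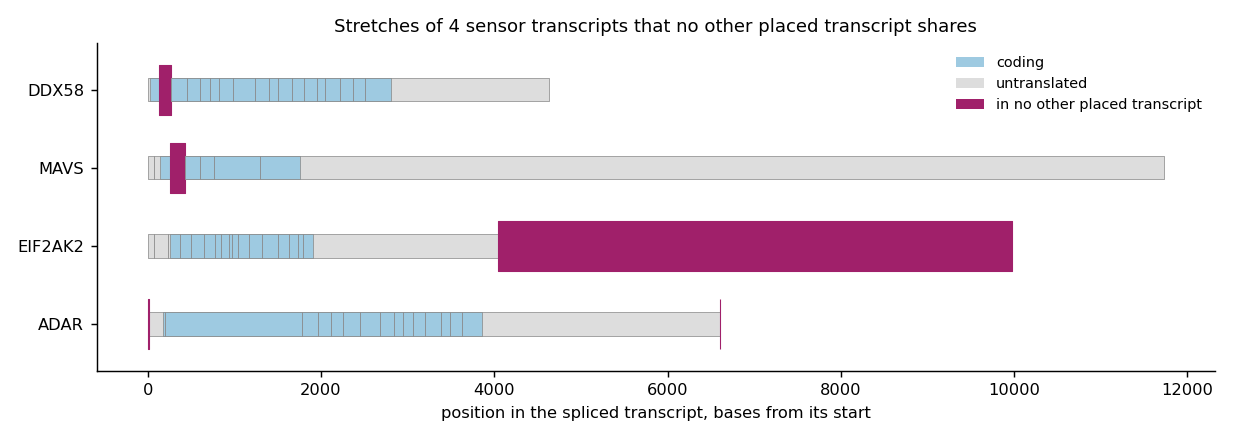
Spliced transcripts of 4 sensor genes, with the position in bases from the transcript's start on the x axis. Coding bases are blue, untranslated bases grey, and the raised bars mark the stretches that no other transcript placed in GENCODE 44 shares, so that transcripts known by symbol only were not compared. DDX58 (135 bases) and MAVS (175) have 1 short coding exon each, EIF2AK2 (5933) has the end of its 3′ untranslated region, and ADAR (26) has a few bases at both ends.

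With DAC, 3 of the 5 sensor genes in the fit of protein-coding transcripts rose (DDX58, IFIH1 and EIF2AK2; limma with Benjamini-Hochberg adjustment, adjusted p under 0.01) and 0 fell. DDX58 entered the fit only through its libraries with DAC, so that its place in the counts and in the median of the sensors is a description, and it was not tested where at least 10 normalized reads were asked in every library. Of all 9016 transcripts tested, 39.3% changed with DAC, 30.6% upward and 8.70% downward. With ATRA, 0 of the 5 passed, and among all transcripts 9.14% did, with 6.47% upregulated and 2.67% downregulated. At an unadjusted p under 0.05, IFIH1 was the only 1 of the 5 with ATRA, and edgeR and DESeq2 called 0 as well. With DAC + ATRA, DDX58, IFIH1, EIF2AK2 and MAVS rose, 4 of 5, beside 46.8% of all transcripts changed, 32.6% upregulated and 14.2% downregulated. Between DAC + ATRA and DAC, IFIH1 alone of the 5 differed, where 11.3% of all transcripts did. Between DAC + ATRA and ATRA, DDX58, IFIH1 and EIF2AK2 differed, beside 34.8% of all transcripts. The interaction term, the part of the DAC + ATRA value beyond the sum of both single-agent log2 values, passed in 0 of 5 and in 2.46% of all transcripts. At an unadjusted p under 0.05 it was again IFIH1 alone, and neither edgeR nor DESeq2 called any.

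The median log2 fold change over the 5 genes was 0.79 for DAC, 0.11 for ATRA alone and 0.95 for the combination. Over 1 transcript of each of 7620 symbols it was 0.24, 0.00 and 0.22. Over all transcripts tested the median was 0.22 with DAC and 0.20 with DAC + ATRA, and it was 0.07 in both with size factors from protein-coding transcripts in the same limma fit. This scaling moved the split of calls as well: 77.9% of those with DAC were upward in the main scaling and 62.7% in this one, with 69.7% and 59.9% for DAC + ATRA and 74.5% and 63% between DAC + ATRA and ATRA. Scaling by library size moved the split with ATRA from 70.8% to 54.6%. None of the sensor transcripts that passed changed direction in either.

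**Figure D2:**
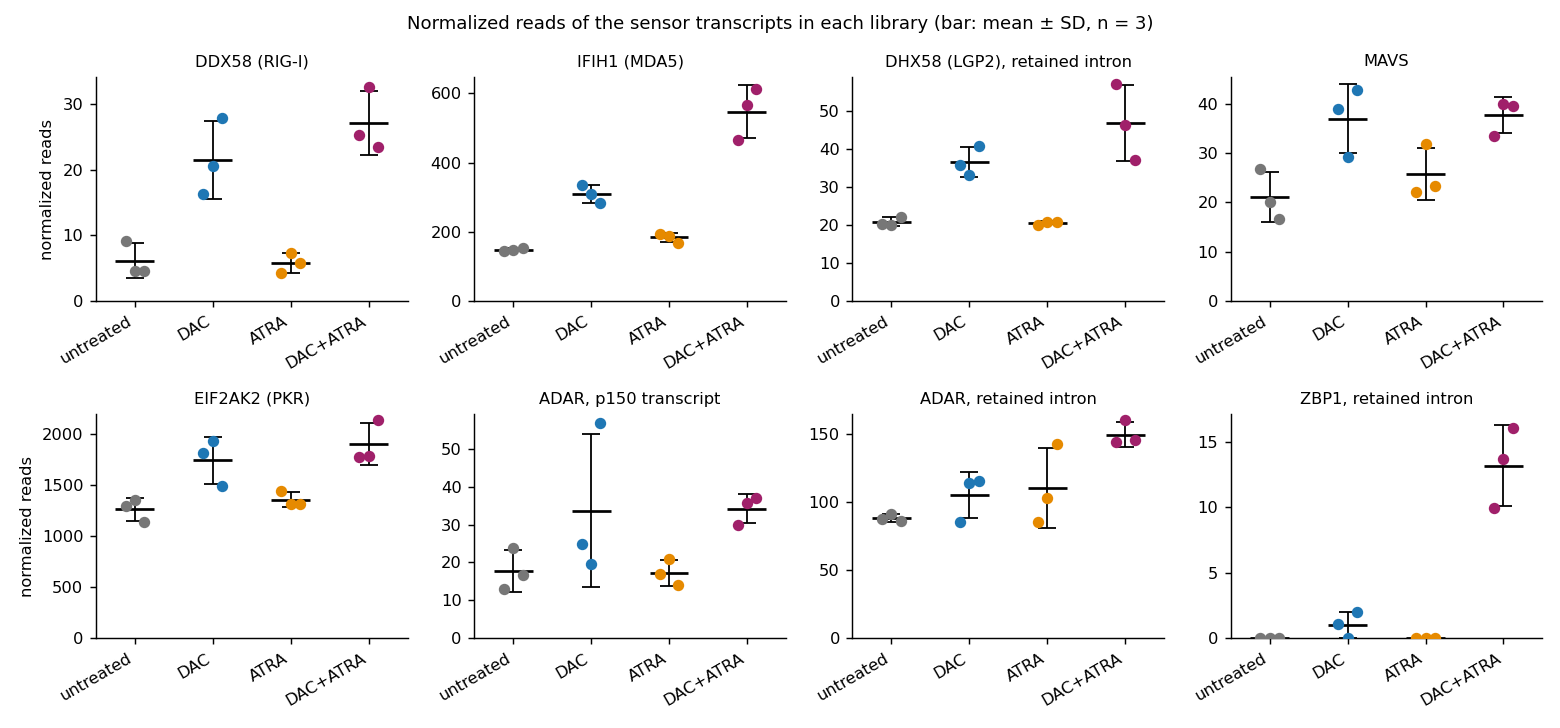
Normalized reads (y axis, linear, each panel with its own range) of 8 transcripts of the 7 sensor genes in untreated, DAC, ATRA and DAC + ATRA libraries. Points are libraries, bars the mean ± SD (n = 3). IFIH1 shows 4 separate groups with DAC + ATRA highest at 464 to 612, DDX58 splits into a low pair of groups and a high pair, and ZBP1 exceeds 2 normalized reads with DAC + ATRA only.

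DDX58 encodes RIG-I (chr9:32455302-32526208, minus strand, hg38, GENCODE 44, as RIGI). Its transcript ENST00000379883 has 18 exons, and its value rests on exon 2, a coding exon of 135 bases at chr9:32500805-32500939 that the second transcript, which had no read, lacks. This exon is shown because it is the only stretch that marks the full-length transcript, 5′ to 3′ on the minus strand:

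DDX58 exon 2: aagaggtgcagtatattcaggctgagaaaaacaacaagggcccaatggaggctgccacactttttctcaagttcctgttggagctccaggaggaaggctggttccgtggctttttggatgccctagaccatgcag

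The DDX58 transcript had 9.19, 4.55 and 4.62 normalized reads in untreated cells and 16.2, 20.5 and 27.9 with DAC. With ATRA it had 4.22, 7.28 and 5.83, and with DAC + ATRA 25.3, 32.6 and 23.5. Every library with DAC lay above every library without it, whereas untreated and ATRA libraries overlapped, as did DAC and DAC + ATRA. The ratio of group means to untreated was 3.52 with DAC and 4.44 with DAC + ATRA. DDX58 passed the filter on low values only through the groups with DAC, where 6 of its 12 libraries reached 10 normalized reads, so that its call in that fit is a description. In the limma fit without a filter on low values, DDX58 rose by 1.69 ± 0.37 on the log2 scale (SE, n = 3 per group, adjusted p = 0.000124) with DAC and by 2.03 ± 0.37 (adjusted p = 2.76e-06) with DAC + ATRA. With ATRA the value was -0.04 ± 0.37 (adjusted p = 1). In the filtered fit, the difference between DAC + ATRA and DAC was 0.34, with a 95% interval from -0.36 to 1.04, which leaves room for a change in either direction. The whole gene rests on 181 reads.

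IFIH1 encodes MDA5 (chr2:162267074-162318684, minus strand). Its main transcript, ENST00000263642, was not placed by identifier in GENCODE 44 and is known by its symbol only. It had 143, 148 and 152 normalized reads in untreated cells, 193, 189 and 168 with ATRA, 336, 308 and 283 with DAC, and 464, 566 and 612 with DAC + ATRA. IFIH1 was the only sensor transcript named here whose 4 groups did not overlap at any step of this order. The share of all transcripts with 4 separate groups was not counted. It rose by 1.05 ± 0.13 on the log2 scale with DAC (adjusted p = 5.62e-07) and by 1.87 ± 0.13 with DAC + ATRA (adjusted p = 7.86e-11), which are ratios of means of 2.09 and 3.7.

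ATRA alone gave IFIH1 0.31 ± 0.13 (adjusted p = 0.12), a ratio of means of 1.24, although the 3 libraries lay above the untreated ones. ATRA on top of DAC gave 0.82 ± 0.13 (adjusted p = 6.76e-05), and IFIH1 passed this comparison in each of 24 alternative fits. The interaction was 0.51, with a 95% interval from 0.14 to 0.88 (adjusted p = 0.121), and it did not pass. Its adjusted p was 0.0297 with edgeR, 0.0321 with DESeq2, 0.0361 with scaling by library size and 0.045 with size factors from protein-coding transcripts, and up to 0.371 in the other alternatives. The short protein-coding transcript ENST00000421365 (chr2:162310147-162318684, 2 exons) had means of 10.1 ± 1.65 (SD, n = 3) untreated, 10.7 ± 5.93 with DAC, 10.4 ± 1.23 with ATRA and 15.5 ± 4.67 in the combination. All of its groups overlapped, and its log2 value with DAC + ATRA was 0.54 ± 0.36 (adjusted p = 0.2).

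DHX58 encodes LGP2 (chr17:42101404-42112714, minus strand). None of its 4 protein-coding transcripts had a read. Of these, ENST00000413196 has 113 bases of its own, and ENST00000251642, ENST00000591220 and ENST00000430773 have none, so that this does not show absence. The reads of DHX58 lay on 2 retained-intron transcripts, tested in a fit over transcripts of every biotype. In that fit of 19373 transcripts, 33.5% changed with DAC, 41.6% with DAC + ATRA and 6.97% with ATRA, 8.77% differed between DAC + ATRA and DAC, and 29.4% between DAC + ATRA and ATRA. ENST00000592024 (chr17:42101600-42102809), at the 3′ end of the gene, had 20.2, 20.0 and 22.2 normalized reads untreated, 35.7, 33.1 and 40.8 with DAC, 20.1, 20.9 and 20.8 with ATRA, and 57.0, 46.3 and 37.1 with DAC + ATRA. Libraries without DAC stayed within 20.0 to 22.2, and all libraries with DAC were above 33. DHX58 rose by 0.78 ± 0.22 with DAC (adjusted p = 0.00599) and by 1.11 ± 0.22 with DAC + ATRA (adjusted p = 0.00017), and ATRA gave -0.01 ± 0.22 (adjusted p = 0.998). The DAC call was lost in 10 of 21 alternatives, among them edgeR with TMM (0.76, adjusted p = 0.0104), and without each of untreated libraries 1, 2 and 3, DAC library 4 and DAC library 6, with values from 0.70 to 0.82. The second transcript, ENST00000586522 (chr17:42103213-42112713), ran from 17.2 ± 5.51 (SD, n = 3) with ATRA to 26.2 ± 3.88 with DAC + ATRA, and its log2 value with DAC + ATRA was 0.47 ± 0.28 (adjusted p = 0.161). Reads on retained-intron transcripts do not measure the coding transcript of DHX58, and the strand setting of the counting is not known.

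MAVS, the mitochondrial adaptor of RIG-I and MDA5, lies at chr20:3846799-3876123 on the plus strand. The value of its transcript ENST00000428216 (7 exons) rests on coding exon 3 (chr20:3857635-3857809, plus strand), which the second transcript lacks, and which is shown for the same reason as in DDX58:

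MAVS exon 3: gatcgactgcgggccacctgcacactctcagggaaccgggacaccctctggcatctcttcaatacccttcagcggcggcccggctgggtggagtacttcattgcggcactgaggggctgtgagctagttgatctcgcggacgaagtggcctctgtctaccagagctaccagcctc

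MAVS had 26.7, 20.0 and 16.6 normalized reads untreated, 38.9, 29.2 and 42.8 with DAC, 22.2, 31.9 and 23.3 with ATRA, and 33.5, 40.0 and 39.5 with DAC + ATRA. DAC libraries overlapped with ATRA libraries and lay above the untreated ones. The log2 value was 0.79 ± 0.24 with DAC (adjusted p = 0.0101), just short of the threshold, and MAVS rose by 0.83 ± 0.24 with DAC + ATRA (adjusted p = 0.00632). DAC + ATRA against DAC gave 0.04, with a 95% interval from -0.47 to 0.54. Neither call was stable: with DAC, MAVS passed in 8 of 24 alternatives (with values from 0.79 to 0.96), among them without untreated library 1, DAC library 5, ATRA library 8 or ATRA library 9, and with DAC + ATRA it did not pass in 11 of 24. Those 11 include edgeR with TMM (0.69, adjusted p = 0.0219), DESeq2 (0.70, adjusted p = 0.0526) and the fits without untreated library 2 (0.80) or 3 (0.68) or DAC + ATRA library 10 (0.91), 11 (0.78) or 12 (0.79).

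EIF2AK2 encodes PKR (chr2:37099210-37157522, minus strand). It was the most deeply counted of the 7 genes, with 19284 reads, of which 19104 were on ENST00000233057 and rest on its 3′ untranslated end. This transcript had 1299, 1357 and 1141 normalized reads untreated, 1819, 1931 and 1490 with DAC, 1444, 1320 and 1315 with ATRA, and 1783, 1788 and 2145 with DAC + ATRA. The lowest DAC library (1490) lay just above the highest ATRA library (1444), and the libraries with DAC were all above those without it. EIF2AK2 rose by 0.46 ± 0.11 on the log2 scale with DAC (adjusted p = 0.00185) and by 0.59 ± 0.11 with DAC + ATRA (adjusted p = 0.000145), ratios of means of 1.38 and 1.51 and the smallest rises among the sensor transcripts that passed. ATRA gave 0.11 ± 0.11 (adjusted p = 0.618), and DAC + ATRA against DAC gave 0.13 (95% interval -0.11 to 0.36). The DAC call was lost with edgeR (0.26, adjusted p = 0.0271), DESeq2 (0.31, adjusted p = 0.0102) and size factors from protein-coding transcripts (0.30, adjusted p = 0.0133), and without untreated library 3 (0.39), DAC library 4 (0.43) or DAC library 5 (0.38). The call between DAC + ATRA and ATRA (0.48) was lost without DAC + ATRA library 12 (0.39).

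The second EIF2AK2 transcript, ENST00000395127 (chr2:37105143-37157047, 301 bases of its own), had 10.1, 9.10 and 4.62 normalized reads untreated, 17.3, 21.4 and 18.9 with DAC, 7.39, 16.4 and 9.16 with ATRA, and 17.2, 17.9 and 21.0 with DAC + ATRA. It rose by 1.23 ± 0.34 with DAC (adjusted p = 0.00437) and by 1.19 ± 0.34 with DAC + ATRA (adjusted p = 0.00467) in the same direction as the longer transcript. Both calls were lost with edgeR (1.06 and 1.07) and DESeq2 (1.12 and 1.10), and that with DAC + ATRA also with scaling by library size (1.06, adjusted p = 0.0118). The call with DAC was also lost without untreated library 3 (0.93), DAC library 5 (1.15) or DAC library 6 (1.24), and the combination's without untreated library 3 (0.89) or DAC + ATRA library 10 (1.25), 11 (1.22) or 12 (1.11).

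ADAR encodes the editing enzyme ADAR1 (chr1:154581695-154628013, minus strand), whose long form p150 starts at an interferon-inducible promoter and whose short form p110 is made constitutively. By its annotated coding start, ENST00000368474 codes for p150 and ENST00000368471 for p110. The p110 transcript had no read in any library, so no ratio of both forms could be given. It has 41 bases of its own, so that this does not show absence of p110. The p150 transcript had 12.9, 23.7 and 16.6 normalized reads untreated, 24.9, 19.5 and 56.8 with DAC, 16.9, 20.9 and 14.1 with ATRA, and 29.8, 35.8 and 37.1 with DAC + ATRA. DAC library 6, at 56.8, was more than the other DAC libraries together, and DAC overlapped with untreated cells. The log2 value was 0.78 ± 0.33 with DAC (adjusted p = 0.051) and 0.95 ± 0.33 with DAC + ATRA (adjusted p = 0.0173), and neither passed. Without DAC library 6 the value with DAC was 0.34 (adjusted p = 0.38), and 0.10 in edgeR, while that with DAC + ATRA was 0.95 (adjusted p = 0.00503).

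ADAR had 4 further transcripts above 10 normalized reads. Most ADAR reads, 1392 of 2349, lay on the retained-intron transcript ENST00000463920 (chr1:154600177-154627986). It had 87.3, 91.0 and 85.9 normalized reads untreated, 85.4, 114 and 115 with DAC, 85.5, 103 and 142 with ATRA, and 144, 160.0 and 145 with DAC + ATRA, so that DAC + ATRA was above all other libraries. It rose by 0.75 ± 0.17 with DAC + ATRA in the fit over every biotype (adjusted p = 0.00068), and the values with DAC (0.23, adjusted p = 0.279) and ATRA (0.29, adjusted p = 0.349) did not pass. Scaling by library size ended the call (0.61, adjusted p = 0.011). ENST00000530954, known by symbol only, went the other way with DAC, from 18.4, 20.0 and 23.1 untreated to 13.0, 12.7 and 11, a log2 value of -0.70 ± 0.28 (adjusted p = 0.0402) that did not pass. With DAC + ATRA it was back within the untreated range or near it at 22.6, 16.8 and 22.2. The retained-intron transcripts ENST00000534279 and ENST00000492630 passed in no comparison, with log2 values with DAC + ATRA of 0.48 ± 0.30 and 0.29 ± 0.39. When the reads of all ADAR transcripts were summed, the means were 156 ± 11.5 (SD, n = 3) untreated, 184 ± 29.8 with DAC, 182 ± 44 with ATRA and 242 ± 6.49 in the combination, and the sum rose by 0.64 with DAC + ATRA (adjusted p = 0.00143).

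**Figure D3:**
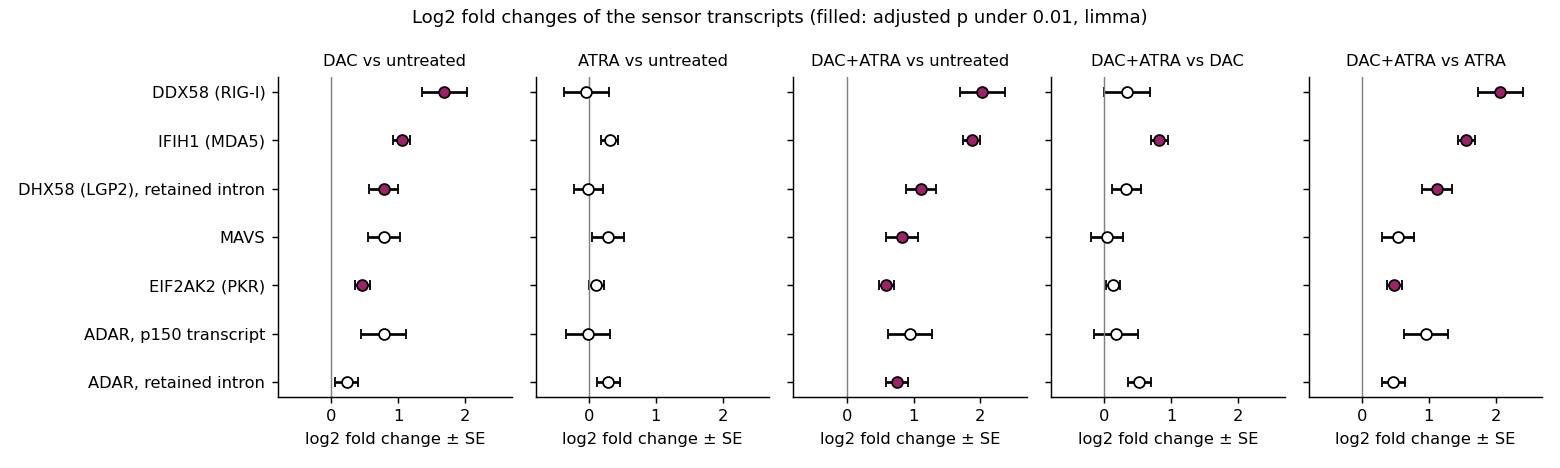
Log2 fold changes ± SE (x axis) of 7 transcripts of 6 sensor genes in 5 comparisons. Filled points passed an adjusted p of 0.01 in limma, those of DDX58 as a description. IFIH1 is filled in every panel but that of ATRA and alone is filled between DAC + ATRA and DAC (0.82), and no point is filled with ATRA.

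ZBP1 (chr20:57603846-57620576, minus strand) had 42 reads in all, 40 of them on the retained-intron transcript ENST00000461547 (chr20:57604055-57618081), which did not reach the filter of the fits. Its reads were 0, 0 and 0 in untreated cells, 1, 0 and 2 with DAC, 0, 0 and 0 with ATRA, and 11, 13 and 13 with DAC + ATRA. All 3 DAC + ATRA libraries lay above all 9 others, with a mean of 13.2 ± 3.09 normalized reads (SD, n = 3). Against a floor of 3 reads per library, which is 2.75 normalized reads on average in untreated cells, this ZBP1 transcript was at least 4.8-fold higher with DAC + ATRA. The exact permutation test of 3 against 3 libraries gave p = 0.1, the smallest it allows. The coding transcripts of ZBP1 had 2 reads in all, and reads on a retained-intron transcript do not measure them, as for DHX58. A count of 0 at this depth allows up to 3 reads per library and does not show absence, and these limits cover counting error only.

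Interferon-inducible promoters often carry pairs of GAAA separated by 2 bases (GAAANNGAAA), to which interferon regulatory factors bind. The windows around RefSeq starts (GRCh38.p14, 250 bases before to 50 after, both strands, the start as base 1 and the base before it as -1) were searched for this motif and for the same pair separated by 1 base (GAAANGAAA). Windows were found for 5 of the 7 genes, and DHX58 and ZBP1 were not matched. The share of all 35116 windows that hold each motif was 3.57% for GAAANNGAAA and 3.12% for GAAANGAAA. The promoters of DDX58, IFIH1 and EIF2AK2, which passed with both DAC and DAC + ATRA, are shown, with matches in capitals, 5′ to 3′ on the minus strand. They lie at chr9:32526197-32526446 for DDX58, chr2:162318685-162318934 for IFIH1 and chr2:37156977-37157230 for EIF2AK2, which includes 4 bases after the start:

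DDX58: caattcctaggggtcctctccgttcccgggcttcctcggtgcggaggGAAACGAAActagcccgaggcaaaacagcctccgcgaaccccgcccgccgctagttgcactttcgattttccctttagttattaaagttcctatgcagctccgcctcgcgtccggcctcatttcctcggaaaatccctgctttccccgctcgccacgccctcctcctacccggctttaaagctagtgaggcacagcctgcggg

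IFIH1: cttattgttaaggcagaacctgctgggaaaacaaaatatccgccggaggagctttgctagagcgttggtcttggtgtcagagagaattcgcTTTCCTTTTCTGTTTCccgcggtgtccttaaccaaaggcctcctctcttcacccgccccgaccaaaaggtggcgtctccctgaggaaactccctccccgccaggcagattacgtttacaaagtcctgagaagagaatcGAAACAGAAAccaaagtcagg

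EIF2AK2: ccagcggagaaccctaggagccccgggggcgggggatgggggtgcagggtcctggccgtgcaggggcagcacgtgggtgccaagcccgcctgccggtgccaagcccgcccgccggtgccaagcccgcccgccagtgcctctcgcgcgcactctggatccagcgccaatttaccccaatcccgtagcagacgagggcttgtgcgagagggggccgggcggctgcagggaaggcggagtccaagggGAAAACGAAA

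IFIH1 held GAAANNGAAA at -21 to -12 and, on the other strand, at -159 to -150 and -153 to -144, where these matches overlap. EIF2AK2 held it at -6 to 4, across the start itself. DDX58 held no GAAANNGAAA and held GAAANGAAA at -203 to -195. Neither MAVS nor any of the 3 ADAR windows held either motif, but none of these ADAR windows reaches the start of the measured p150 transcript at chr1:154608186, whose promoter was therefore not searched. A match is a description of the letters, and no match says only that these letters are not in this window.

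The genes around the sensors were taken as 4 lists, each gene read from the protein-coding transcript that had its highest mean level. Of 36 genes of RIG-I-like receptor signaling, 21 were tested, and with DAC + ATRA 10 rose, 2 fell and 9 did not pass, with a median log2 fold change of 0.57 beside 0.22 over all symbols, where 32.6% of all transcripts rose and 14.2% fell. With DAC 7 rose and 1 fell, beside 30.6% and 8.70% of all transcripts, and with ATRA 2 rose, beside 6.47%. RNF135, a ubiquitin ligase needed for RIG-I activation, passed the filter through the treated groups only, so that its log2 value of 1.84 ± 0.29 and its place among the 10 are a description. RNF125, a ligase that marks RIG-I and MDA5 for degradation, rose by 1.37 ± 0.10 (adjusted p = 2.21e-10), and CYLD, a deubiquitinase of the pathway, by 1.29 ± 0.10 (adjusted p = 1.45e-09). TBKBP1, an adaptor of TBK1, rose by 1.98 ± 0.16 (adjusted p = 1.08e-09).

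The kinase TBK1 rose from 672 ± 36.6 normalized reads (SD, n = 3) to 1237 ± 69.4 with DAC + ATRA, 0.88 ± 0.10 on the log2 scale (adjusted p = 1.2e-07), and its relative IKBKE from 189 ± 32.6 to 326 ± 34.0 (0.79 ± 0.15, adjusted p = 0.000142). The genes that fell were RELA, an NF-κB subunit, by 1.72 ± 0.29 (adjusted p = 4.02e-05) on 1 transcript with 370 of its 909 reads, and TOMM70A, a mitochondrial receptor that binds MAVS, by 0.41 ± 0.10 (adjusted p = 0.00146). Of IRF3 and IRF7, the factors that induce interferon genes, IRF7 had no read. The IRF3 transcript chosen had no read while other IRF3 transcripts had 907, and with the reads of all transcripts of a symbol summed, IRF3 had 0.22 ± 0.16 with DAC (adjusted p = 0.269), 0.06 ± 0.16 with ATRA (adjusted p = 0.878) and 0.29 ± 0.16 in the combination (95% interval -0.05 to 0.63, adjusted p = 0.138).

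Of 18 interferon and interferon receptor pathway genes, 6 were tested, and all 6 passed upward with DAC + ATRA, beside 32.6% of all transcripts, with a median of 0.89. The place of IFNLR1 among the 6 is a description, and TYK2 rests on 1 transcript with 384 of its 4409 reads. TYK2, a kinase bound to the type I receptor, lost its call (0.73, adjusted p = 0.00449) without a filter on low values (0.73, adjusted p = 0.0305), with edgeR (0.61), DESeq2 (0.62), library size (0.58) or protein-coding size factors (0.60), and without untreated library 1 (0.72) or 2 (0.69) or DAC + ATRA library 10 (0.69) or 11 (0.72). With DAC 3 of the 6 passed upward, IFNLR1 among them, beside 30.6% of all transcripts, and with ATRA 2, beside 6.47%. IFNLR1, the specific chain of the interferon lambda receptor, passed the filter only through the groups with DAC and had no read in any untreated library and 53 to 62 reads with DAC + ATRA, at least 22-fold higher than a floor of 3 reads per library, and 64 to 106 reads with DAC, at least 28-fold higher. IFNAR2, a chain of the type I interferon receptor, rose by 1.23 ± 0.10 (adjusted p = 1.83e-09), the kinase JAK1 by 0.92 ± 0.09 (adjusted p = 3.12e-08) and IL10RB, the shared chain of the lambda receptor, by 0.86 ± 0.14 (adjusted p = 1.65e-05). IFNB1, the first interferon made after sensing, was too low to test, with 0, 2 and 2 reads untreated, 6, 2 and 5 with DAC, 1, 0 and 1 with ATRA, and 5, 6 and 2 with DAC + ATRA.

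Of 32 other double-stranded RNA-binding and 2-5A pathway genes, 20 were tested. With DAC + ATRA 12 passed upward, 1 fell and 7 did not pass, beside 32.6% of all transcripts upward, with a median of 1.04. With DAC 9 passed upward, beside 30.6%, and with ATRA 8, beside 6.47%, where 0 of the 5 sensor genes did; the difference between these lists was not tested. OAS1, a synthetase that makes 2-5A from double-stranded RNA, rose by 5.00 ± 0.14 (adjusted p = 6.73e-17) and the synthetase OAS2 by 3.43 ± 0.15 (adjusted p = 5.89e-14). OASL, a family member without synthetase activity, passed the filter through treated libraries only, and its log2 value of 4.28 ± 0.32 is a description. OAS1 went from 24.5 ± 2.03 normalized reads (SD, n = 3) untreated to 147 ± 7.01 with DAC, 65.1 ± 6.63 with ATRA and 813 ± 70.8 in the combination. NLRP1, an inflammasome sensor, passed it only through the groups with DAC, and its value of 2.99 ± 0.50 is a description. The helicase DHX33 fell by 0.48 ± 0.13 (adjusted p = 0.00303). TLR3, the endosomal receptor for double-stranded RNA, had 2.76, 0.91 and 4.62 normalized reads untreated and 18.1, 23.2 and 18.5 with DAC + ATRA. It passed the filter only through DAC + ATRA and was not tested without 1 of these libraries, so that its log2 value of 2.60 ± 0.59 is a description. Of the 12 genes upward, 5 (TLR3, OASL, DDX60L, STAU1 and NLRP1) passed the filter without any untreated library, and their places in the counts are a description. PRKRA, the protein activator of PKR, had no read on the transcript chosen and 238 on its other transcripts, and with all of them summed its log2 value with DAC + ATRA was 0.01 ± 0.26 (95% interval -0.54 to 0.55, adjusted p = 0.979).

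Of 12 partners of PKR and ZBP1, 8 were tested, and with DAC + ATRA 4 passed upward and 0 downward, with a median of 0.55. Of all transcripts 46.8% changed and 32.6% rose, so that 4 of 8 lies near the background. With DAC 3 passed upward, beside 30.6%, and with ATRA 0, beside 6.47%. RIPK3, the kinase that ZBP1 engages, was read from 1 transcript with 83 of the gene's 788 reads. This transcript had 1.84, 2.73 and 2.77 normalized reads untreated and 13.6, 13.7 and 13.6 with DAC + ATRA. It passed the filter only through DAC + ATRA, so that its log2 value of 2.10 ± 0.35 and its place among the 4 are a description. PPP1R15A, which reverses the phosphorylation of eIF2α, rose by 1.13 ± 0.16 (adjusted p = 7.94e-06), the transcription factor ATF4 by 0.74 ± 0.14 (adjusted p = 0.000123) and DNAJC3, an inhibitor of PKR, by 0.69 ± 0.10 (adjusted p = 9.7e-06).

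**Figure D4:**
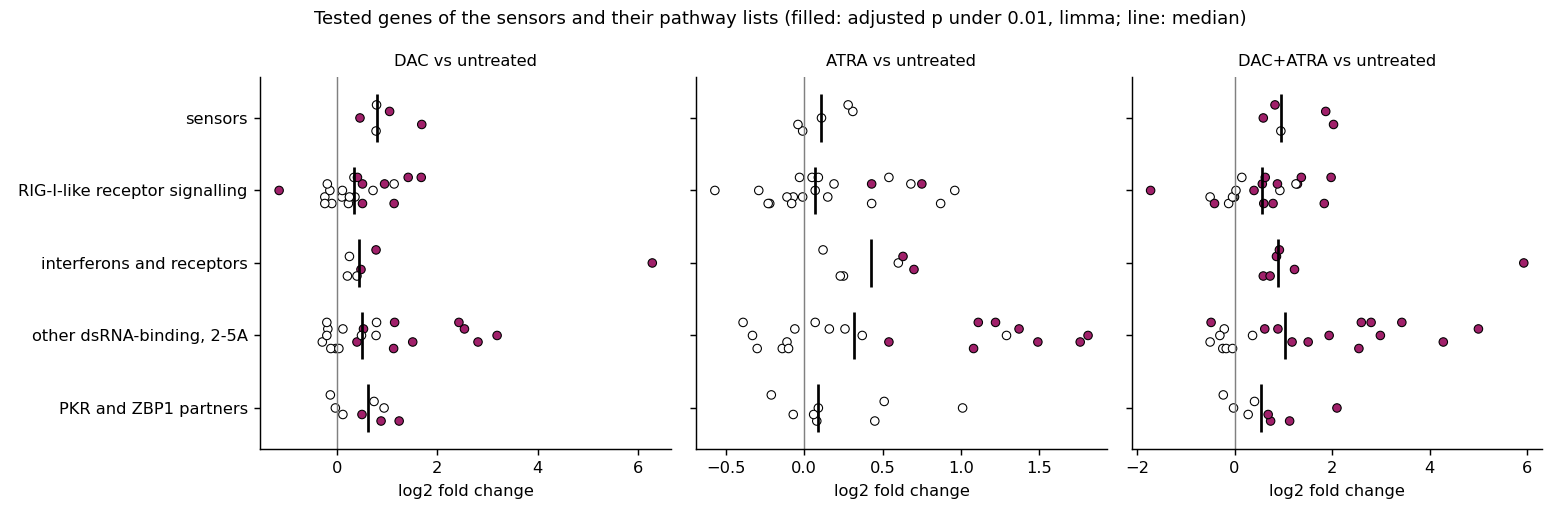
Log2 fold changes (x axis, each panel with its own range) of the tested sensors and of 4 pathway lists for each treatment against untreated cells. Points are genes, filled where the adjusted p was under 0.01, and lines are medians. With DAC + ATRA the medians run from 0.55 for the PKR and ZBP1 partners to 1.04 for the other double-stranded RNA-binding genes.

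The profiles most like those of the sensors over the 12 libraries were sought among 7619 other symbols by Pearson's r on the log2 scale, as a description in which the libraries share 4 groups. For IFIH1 they were RSAD2, an interferon-induced antiviral gene (r = 0.991), FUCA1 (0.989) and DGKG (0.987). For DDX58 they were PADI4 (0.978), APOC2 (0.975) and CCDC73 (0.974), and for EIF2AK2 AP1G1 (0.972), CLOCK (0.968) and CMTM6 (0.968). MAVS was most like MCTS1 (0.953), STYX (0.949) and SAFB2 (0.937), and ADAR most like ZNF446 (0.907), RNF10 (0.887) and S100A11 (0.887). Among the sensors themselves r was highest between IFIH1 and EIF2AK2 (0.90) and lowest between EIF2AK2 and ADAR (0.54).

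Of 7 myeloid markers, 4 were tested, and PTPRC had no read on the transcript chosen. Their summed level was 49537 to 55630 normalized reads in untreated libraries, 22016 to 34116 with DAC, 27495 to 38916 with ATRA, and 18108 to 19495 in the combination. Most of it was MPO, a granule enzyme of early myeloid cells, which fell from 52120 to 14973 with DAC + ATRA (-1.80 ± 0.14, adjusted p = 6.73e-09), whereas ITGAM, an integrin chain of mature myeloid cells, rose from 202 to 2725 (3.75 ± 0.10, adjusted p = 2.08e-17). LYZ, the lysozyme of monocytes and granulocytes, rose by 2.73 ± 0.15 (adjusted p = 4.53e-12), and SPI1, a myeloid transcription factor, had -0.10 ± 0.15 (adjusted p = 0.586). So 2 of the 4 rose and 1 fell, with a median of 1.31, while the sum follows MPO. Of 8 markers of other cells, CD3E and HBA1 had no read on the transcript chosen, and COL1A1 was the only 1 tested. The sum over the 8 was 14 to 21 normalized reads untreated, up to 264 with DAC, up to 50 with ATRA and up to 154 in the combination, nearly all of it COL1A1. EPCAM was read in libraries with DAC only, at up to 10 reads. These levels moved with DAC and with DAC + ATRA, and with ATRA alone as well. With ATRA, ITGAM rose, MPO fell and COL1A1 rose by 1.33 ± 0.19 (limma, adjusted p = 1.98e-05), whereas LYZ and SPI1 did not pass. Of the 5 sensor genes, 0 passed with ATRA. The part of these markers in the values of the sensors was not tested.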

How the data were processed

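RNA-seq of 12 U937 libraries was analysed. The authors depleted ribosomal RNA and sequenced strand-specific paired-end libraries. The submitters' processing notes name FastQC, STAR, HTSeq and DESeq2 with build hg38; versions, counting mode and strand setting are not given in the sources used here. The deposited signal values are the authors' reads per transcript divided by 1 size factor per library. In each library 100% of values were whole multiples of 1 step (within 0.01 of a read), so reads were recovered. Columns name the treatment and a running number and were mapped to groups only. Pairs of libraries of a group differed by more than sampling noise (chi-square per transcript 2.36 to 10.4), so none was counted as a duplicate.

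Transcripts were placed with GENCODE 44. Protein-coding transcripts (232 of those tested by symbol only) with at least 10 normalized reads in at least 3 libraries were tested with limma 3.58.1 (R 4.3.3; trend and robust) on log2(normalized reads + 1), all libraries in 1 fit, with Benjamini-Hochberg adjustment and a threshold of 0.01. Fold changes on this scale understate those of low transcripts. Other biotypes came from the same fit over all biotypes. Genes were represented by their protein-coding transcript with the highest mean. From each list, up to 4 of the largest rises and falls with DAC + ATRA past the threshold were named, besides IFNB1, TLR3, IRF3, IRF7, TBK1, IKBKE, PRKRA and RIPK3. The genes and lists were chosen with earlier results of these data known. Alternatives were edgeR 4.0.16 with TMM and DESeq2 1.42.0 on recovered reads, other scalings, filters, pseudocount (0.1), threshold (0.05), feature sets and sample sets, and each library left out. edgeR without DAC library 6 and the alternatives for other biotypes were chosen after seeing the data. The limma script was tested on simulated data. Some markers and 1 motif are not reported here.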

Additional observations from a re-analysis of the deposited data

Results flagged for a closer look

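ZBP1 did not reach the filter of the fits and had a mean of 13.2 normalized reads on a retained-intron transcript with DAC + ATRA, against 0 in untreated libraries.

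The effect of DAC differed with and without ATRA, by the interaction term of the limma fit, for 3 of the listed genes. Over all transcripts 2.46% passed. The 3 were 1 of 20 tested other double-stranded RNA-binding and 2-5A genes, 1 of 4 tested myeloid markers and the only tested marker of other cells. None of the sensors or of the other lists passed. OAS1 had an interaction of 1.08 ± 0.20 (adjusted p = 0.00193), a larger rise with both agents than their log2 fold changes add up to. ITGAM had one of -0.63 ± 0.14 (adjusted p = 0.00819) and COL1A1 one of -2.06 ± 0.26 (adjusted p = 4.1e-05), both below the sum. The causes were not tested.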

How the results depend on the processing

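Over 78 comparisons of 13 sensor transcripts and their alternatives, 1727 values were computed. Of these, 1665 kept their side of the threshold, 43 lost the call, 19 gained it and 0 reversed a called direction. Only 17 of the 78 comparisons were called in the main fit, and the values of the others could not lose a call. Of the values that passed in neither fit, 51 changed sign. With transcripts of every biotype, 5 sensor genes changed with DAC in place of 3, since DHX58 then had a tested transcript and MAVS moved to an adjusted p of 0.00964. With a library left out, 2 to 4 genes changed with DAC and 3 to 5 with DAC + ATRA; the counts with ATRA and for the interaction stayed at 0 in each alternative. Of the other double-stranded RNA-binding genes, 8 in place of 13 changed with DAC + ATRA where at least 10 normalized reads were asked in every library, as fewer were tested. Over all 9016 protein-coding transcripts, edgeR on the recovered reads called 3898 with DAC, 962 with ATRA and 4476 for the combination, where limma called 3547, 824 and 4215. For the interaction, edgeR called 214, DESeq2 335 and limma 222. DDX58, with 19 to 78 reads per group, and ZBP1 are limited by depth. No paired analysis was possible because the columns carry none of the replicate numbers of the labels. The causes of lost calls were not tested.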
